A study of Mus musculus with 8 samples.

Results

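Mitochondrial fatty acid beta-oxidation was examined through 10 nuclear genes, Cpt1b, Cpt2, Acadm, Acadl, Acadvl, Hadha, Hadhb, Echs1, Decr1 and Eci1, named as the core of the pathway in muscle. Earlier results of these data were known when these genes and the lists used below were chosen. A gene was read from a probe set that the platform annotation ties to its symbol alone, and for a gene with several such probe sets the brightest over all arrays was used. This gave values for 9 of the 10 genes, out of 19938 genes measured in the same way. The only probe set naming Cpt1b, the muscle carnitine palmitoyltransferase of the outer membrane, also names a second transcript and was left out, so Cpt1b has no value here.

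RNA of gastrocnemius, a calf muscle built mostly from fast fibres, was profiled on 8 Affymetrix mouse gene arrays, 4 from mice labelled HADAC5 KO and 4 from littermates labelled HDAC5 WT. All mice were 30 weeks old, ate a low-fat chow (58% carbohydrate, 33% protein, 9% fat) and received no further treatment. Hdac5 encodes one of the class IIa deacetylases, which hold MEF2 transcription factors in check in muscle, and the study asked about its role in the expression of interleukin 6 and of genes that interleukin 6 regulates. The labels leave out the sex of the mice, the deleted part of the gene and whether each sample came from a separate animal, so p-values measure only the spread between these samples, which may be technical.

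In beta-oxidation, a fatty acid bound to coenzyme A is passed into the mitochondrion by the carnitine shuttle and is then shortened in repeated rounds. Each round runs through an acyl-CoA dehydrogenase, an enoyl-CoA hydratase, a hydroxyacyl-CoA dehydrogenase and a thiolase, and unsaturated chains also need a reductase and an isomerase. Oxidative fibres rely on this pathway more than glycolytic fibres do, and PPAR receptors, oestrogen-related receptors and the PGC-1 coactivators are known regulators of its genes.

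The targeted gene matched the genotype labels. Hdac5 read 8.31 to 8.39 in the knockout samples and 9.76 to 9.94 in the wild type samples (log2 signal) and fell by 1.497 (SE 0.059, limma adjusted p = 1.74e-07; exact permutation p = 0.0286, 2-sided, the smallest that 4 against 4 samples can give). Arrays had medians of 7.69 to 7.77 and correlated with each other at 0.988 to 0.995. The mean signals of the 9 pathway genes lay between the 88.4th and the 99.2nd percentile of all genes, clear of the dim end of the arrays, whose brightest probe sets read 14.80 to 14.84.

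None of the 9 beta-oxidation genes rose or fell in knockout muscle at a Benjamini-Hochberg adjusted p under 0.05 in limma's test over all genes, a threshold that 0.0652% of the 19938 genes passed. At an unadjusted p under 0.05, 1 of the 9 was higher in knockout (Decr1) and 1 was lower (Echs1), where 4.72% of all genes were higher and 3.18% lower. The same 2 genes were those whose knockout and wild type samples did not overlap, which held for 2.91% of all genes with knockout above and 1.99% with knockout below. Of the 9 differences, 6 were positive and 3 negative. Their median was 0.045 on the log2 scale, against 0.0030 for all genes and 0.021 for the genes brighter than the median gene, and their median size was 0.059, against 0.057 for all genes. Leaving out 1 sample moved the median of the 9 differences between 0.0093 (without knockout sample 3) and 0.076 (without knockout sample 1).

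The intervals limit how large a difference could have gone unseen. Across the 9 genes the 95% limma intervals, each for 1 gene alone, reached from 0.784-fold (Echs1) to 1.23-fold (Decr1) of the wild type signal. The intervals of these 2 genes left out no change. Those of the other 7 included it and reached from 0.883-fold (Hadhb) to 1.17-fold (Eci1). Between samples of a genotype, their pooled standard deviations ran from 0.053 to 0.119 with a median of 0.071, against a median of 0.101 for all genes. Most of all genes are dimmer than these 9, and the spread of equally bright genes was not compared.

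**Figure D1:**
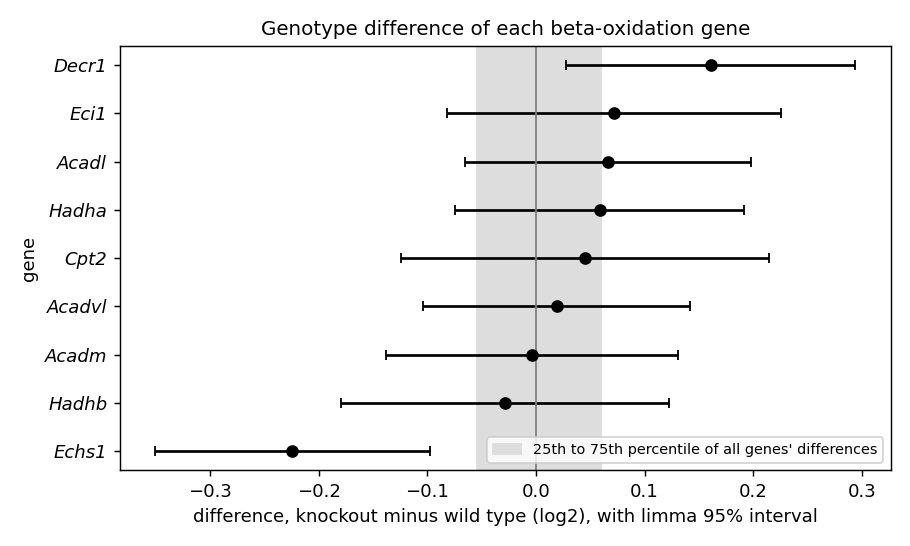
Difference between knockout and wild type for each gene (points, log2, with limma 95% intervals) over the range between the 25th and 75th percentile of all genes' differences (grey band). Echs1 at -0.22 and Decr1 at 0.16 have intervals that leave out 0, and the other 7 genes lie within 0.072 of it.

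Entry into the mitochondrion was represented by Cpt2, the inner membrane carnitine palmitoyltransferase that rebuilds acyl-CoA in the matrix. Its log2 signal in knockout samples 1 to 4 was 10.49, 10.69, 10.79 and 10.67, and in wild type samples 1 to 4 it was 10.67, 10.72, 10.60 and 10.47. Knockout sample 1 and wild type sample 4 were the low ones, and the genotypes overlapped. The difference was 0.045 (SE 0.078, interval -0.12 to 0.21, limma adjusted p = 0.928). Leaving out wild type sample 4 turned its sign (-0.0037).

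The 3 straight-chain acyl-CoA dehydrogenases among the 9 genes take the first oxidative step, each on a different range of chain lengths. Acadvl, the membrane-bound enzyme for very long chains, read 11.57, 11.72, 11.69 and 11.65 in knockout samples 1 to 4 and 11.69, 11.59, 11.64 and 11.64 in wild type samples 1 to 4. Its lowest value was in knockout sample 1 and its highest in knockout sample 2, so the wild type values fell inside the knockout range (difference 0.019, SE 0.056, limma adjusted p = 0.958).

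Acadl, the long-chain enzyme, read 12.80, 13.00, 12.97 and 12.97 in knockout samples 1 to 4 and 12.90, 12.83, 12.90 and 12.85 in wild type samples 1 to 4. Knockout samples 2, 3 and 4 lay above every wild type sample and knockout sample 1 lay below every one of them. The difference was 0.066 (SE 0.060, interval -0.065 to 0.198, limma adjusted p = 0.848), 0.043 without knockout sample 2 and 0.111 without knockout sample 1.

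Acadm, the medium-chain enzyme, read 13.10, 13.25, 13.18 and 13.32 in knockout samples 1 to 4 and 13.22, 13.18, 13.27 and 13.20 in wild type samples 1 to 4. The knockout values spread around the wild type values on both sides, with a standard deviation of 0.095 against 0.040. Its difference was -0.0037 (SE 0.062, limma adjusted p = 0.996), a sign that turned under quantile normalization (0.0052).

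Hadha and Hadhb encode the alpha and beta subunits of the mitochondrial trifunctional protein, which carries the hydratase, dehydrogenase and thiolase activities for long chains. Their starts face away from each other on chromosome 5 in RefSeq (GRCm38.p6), with 272 bases between them. That stretch, chr5:30154981-30155252, is printed on its plus strand because both subunits are transcribed outward from it, and capitals mark the GC boxes (GGGCGG on either strand, the letters of an Sp1 site).
Hadha-Hadhb: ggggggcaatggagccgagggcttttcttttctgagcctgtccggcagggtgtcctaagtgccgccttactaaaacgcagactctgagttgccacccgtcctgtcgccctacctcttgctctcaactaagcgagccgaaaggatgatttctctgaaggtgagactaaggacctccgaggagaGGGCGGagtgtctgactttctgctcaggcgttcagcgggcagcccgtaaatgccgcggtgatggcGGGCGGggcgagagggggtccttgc

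Hadha read 13.01, 13.16, 13.19 and 13.12 in knockout samples 1 to 4 and 13.13, 13.09, 12.99 and 13.03 in wild type samples 1 to 4 (difference 0.059, SE 0.061, limma adjusted p = 0.868; 0.035 without knockout sample 3 and 0.095 without knockout sample 1). Hadhb read 12.59, 12.76, 12.79 and 12.70 in knockout samples 1 to 4 and 12.72, 12.61, 12.85 and 12.77 in wild type samples 1 to 4 (difference -0.029, SE 0.069, limma adjusted p = 0.948). Both subunits overlapped between genotypes, and both had a low value in knockout sample 1. In wild type sample 3 they parted, with Hadhb at its highest and Hadha at its lowest of the 8 samples. The second probe set of Hadhb gave a difference of -0.028.

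The deviations of the 2 subunits from their genotype means correlated at 0.15 over the 8 samples, and at -0.47 over the 7 samples other than knockout sample 1. Leaving out knockout sample 1 turned the sign of Hadhb's difference (0.0104), as did leaving out wild type sample 3 (0.0105) and weighting the arrays (0.0022).

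Echs1 encodes the short-chain enoyl-CoA hydratase of the matrix, which acts on short chains and also in the breakdown of valine. It read 10.77, 10.85, 10.74 and 10.81 in knockout samples 1 to 4 and 10.99, 11.01, 11.11 and 10.95 in wild type samples 1 to 4. Every knockout sample lay below every wild type sample. The difference was -0.22 (SE 0.058, interval -0.35 to -0.098), or 0.856 of the wild type signal (0.784 to 0.934), from 11.01 ± 0.07 to 10.79 ± 0.05 (SD, n = 4 each). It did not pass over all genes (unadjusted p = 0.00228, limma adjusted p = 0.264). Over the 15 alternative fits the difference stayed between -0.25 and -0.19, with adjusted p-values between 0.122 and 0.513. In size it lay at the 96.4th percentile of all genes.

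The 250 bases before the start of Echs1, chr7:140116422-140116671 on the minus strand, are printed because it is the member with the largest genotype difference. Capitals mark GC boxes and the nuclear receptor half-site AGGTCA, the letters read by PPAR and oestrogen-related receptors.
Echs1: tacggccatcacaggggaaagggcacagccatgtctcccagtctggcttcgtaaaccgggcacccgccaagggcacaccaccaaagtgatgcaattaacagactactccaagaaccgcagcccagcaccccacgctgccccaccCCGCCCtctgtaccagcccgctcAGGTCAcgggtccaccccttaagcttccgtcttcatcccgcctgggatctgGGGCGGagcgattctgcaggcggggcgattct

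Decr1 and Eci1 are the auxiliary enzymes for unsaturated chains, the dienoyl-CoA reductase and the enoyl-CoA isomerase of the matrix. Decr1 read 12.19, 12.30, 12.30 and 12.40 in knockout samples 1 to 4 and 12.18, 12.13, 12.18 and 12.06 in wild type samples 1 to 4. Every knockout sample lay above every wild type sample, knockout sample 1 by the narrowest margin. The difference was 0.16 (SE 0.061, interval 0.028 to 0.294), or 1.12 times the wild type signal (1.02 to 1.23), from 12.14 ± 0.06 to 12.30 ± 0.08 (SD, n = 4 each). It did not pass over all genes (unadjusted p = 0.0219, limma adjusted p = 0.508; 0.272 to 0.805 over the 15 alternative fits, where the difference stayed between 0.127 and 0.195). In size it lay at the 90.8th percentile of all genes.

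Eci1 read 10.92, 10.98, 11.02 and 10.83 in knockout samples 1 to 4 and 10.79, 10.94, 10.99 and 10.75 in wild type samples 1 to 4. Its samples overlapped, with wild type samples 2 and 3 inside the knockout range. The difference was 0.072 (SE 0.070, limma adjusted p = 0.858), 0.032 without wild type sample 4 and 0.111 without wild type sample 3. The auxiliary enzymes thus had the same sign, but the wild type samples spread more widely for Eci1 (SD 0.115) than for Decr1 (SD 0.055).

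**Figure D2:**
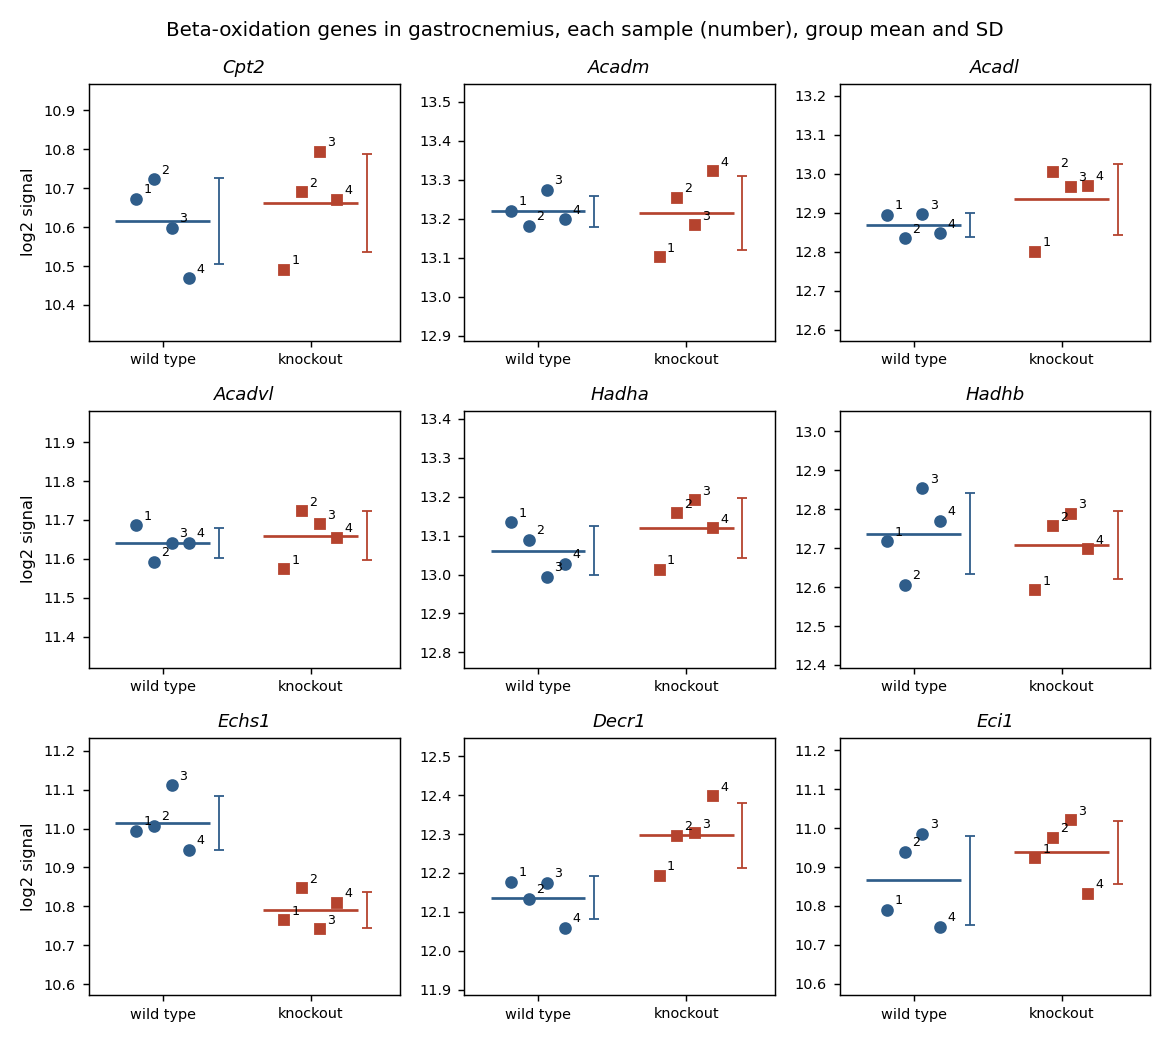
Log2 signal of the 9 genes in each of the 8 samples, wild type circles and knockout squares numbered by sample, with the group mean (line) and SD (bar, n = 4); all panels span the same number of log2 units. The genotypes separate for Echs1 and Decr1 and overlap for the other 7, and knockout sample 1 is the lowest of the knockout samples for 7 of the 9 genes, all but Echs1 and Eci1.

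Knockout sample 1 had low values across the pathway and was the lowest knockout sample for 7 of the 9 genes. Each of the 9 genes lay below its knockout mean in that sample, by 0.097 on average, whereas 53.6% of all genes and 34.0% of the genes brighter than the median gene did so. Wild type sample 4 was also low, with 7 of the 9 genes below the wild type mean and an average deviation of -0.050. There 54.9% of all genes and 78.0% of the brighter genes were below the mean. The other 6 samples had average deviations between -0.0056 and 0.042. Without knockout sample 1 the median difference of the 9 genes was 0.076, and 0 of the 9 passed.

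The deviations from the genotype means were correlated between genes, but the correlation rested largely on that sample. Over the 8 samples 33 of the 36 pairs had a correlation above 0, with a median of 0.47 and a range of -0.18 to 0.90. Over the 7 samples other than knockout sample 1, a choice made after seeing the data, 20 of the 36 pairs were above 0 and the median was 0.10. With any other sample left out the median stayed between 0.44 and 0.57. The points share their arrays and their normalization, so no p is given.

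Acadl and Acadvl were the closest pair, at 0.90 over 8 samples and 0.78 over the 7 without knockout sample 1. Acadm and Decr1 followed at 0.85 and 0.69, and Cpt2 and Hadha at 0.84 and 0.69. Eci1 stood furthest from the others, with a correlation of 0.25 to the mean of the remaining 8 genes, against 0.90 for Acadl. The 250 bases before the starts of the closest pair are printed in full, Acadl from chr1:66863310-66863559 and Acadvl from chr11:70015429-70015678, both on the minus strand and with the capitals marked as for Echs1.
Acadl: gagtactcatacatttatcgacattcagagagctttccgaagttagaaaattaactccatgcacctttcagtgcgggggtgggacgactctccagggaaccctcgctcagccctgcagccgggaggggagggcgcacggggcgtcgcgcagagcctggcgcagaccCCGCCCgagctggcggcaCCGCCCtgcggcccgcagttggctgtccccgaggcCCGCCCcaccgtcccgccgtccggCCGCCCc
Acadvl: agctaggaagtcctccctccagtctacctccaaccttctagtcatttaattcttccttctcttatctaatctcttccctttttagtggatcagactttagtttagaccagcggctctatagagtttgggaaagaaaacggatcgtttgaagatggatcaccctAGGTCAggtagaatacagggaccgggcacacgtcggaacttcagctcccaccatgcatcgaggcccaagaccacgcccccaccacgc
These windows held different letters of the searched kinds, 4 GC boxes for Acadl and 1 half-site for Acadvl.

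**Figure D3:**
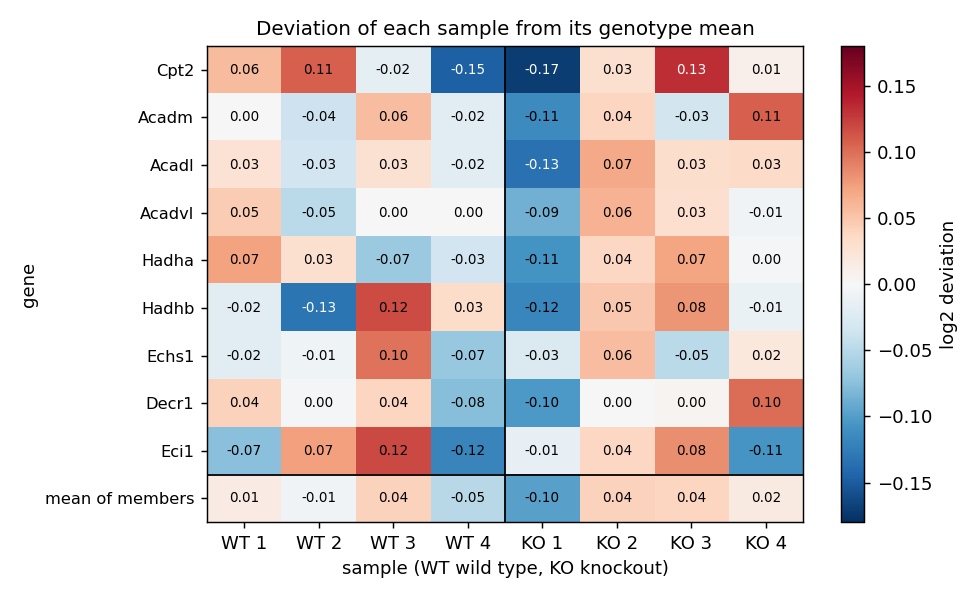
Deviation of each sample (columns) from its own genotype mean for each gene (rows) and for the mean of the 9 genes, on the log2 scale, red above and blue below. The knockout sample 1 column is below 0 in every row, with a mean of -0.097, and the wild type sample 4 column has a mean of -0.050.

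RefSeq promoter windows were found for 8 of the 10 genes. The Sp1 GC box GGGCGG, searched on both strands of the 250 bases before each start, occurred in 6 of the 8 windows (Acadl, Cpt2, Echs1, Eci1, Hadha and Hadhb) and in 32.7% of 32851 windows of all genes. The windows of Hadha and Hadhb overlap, so they share one of these boxes. The half-site AGGTCA occurred in 3 of the 8 (Acadm, Acadvl and Echs1) and in 14.0% of all windows. The extended half-site TCAAGGTCA, which contains AGGTCA, the direct repeat of AGGTCA with 1 base between the copies, the NRF1 site and the MEF2 site occurred in 0 of the 8, and in 0.387%, 0.0335%, 3.74% and 2.92% of all windows. These are matches of letters in a short window and say nothing of binding.

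Genes outside all lists used here were ranked by how closely their deviations followed the mean deviation of the 9 genes, among 9845 genes brighter than the median gene. The closest were Notch4 (r = 0.99), Tjp1 (0.99), Slc45a3 (0.98), Cobll1 (0.97), Akap5 (0.97) and Apol6 (0.96), each over 8 samples. All 6 were lowest of the knockout samples in sample 1, for example Akap5 at 8.56 against 8.86 to 9.00 in the others. The ranking itself selects for this, because the mean deviation of the 9 genes was lowest in that sample (-0.097). Endothelial markers had their lowest mean in the same sample. Their mean log2 signal was 10.35 in knockout sample 1, 10.50 to 10.68 in the other knockout samples and 10.41 to 10.55 in wild type samples. The single markers differed: Pecam1 and Cdh5 were lowest of the 8 samples in knockout sample 1. Kdr was lowest in knockout sample 3, Tek in wild type sample 4 and Emcn in wild type sample 1. The part of endothelial cells in the pattern was not tested.

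Around the pathway, 78 further genes on 10 lists were measured of 86 listed, and 0 rose and 0 fell over all genes in limma. At an unadjusted p under 0.05, 8 were higher in knockout (10.3%, against 4.72% of all genes) and 5 were lower (6.41%, against 3.18%). Without knockout sample 4, 1 passed, the mitochondrial carrier Ucp3. The median difference of the 78 was 0.020. These lists were chosen with earlier results of these data known.

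The carnitine shuttle list held 5 genes, with a median difference of 0.095. Cpt1a, the form of carnitine palmitoyltransferase 1 best known from liver, read 9.17, 8.99, 8.89 and 8.81 in knockout samples 1 to 4 and 8.37, 8.76, 8.54 and 8.23 in wild type samples 1 to 4. Every knockout sample lay above every wild type sample, and knockout sample 1, the lowest knockout sample for 7 of the 9 beta-oxidation genes, was the highest of them for Cpt1a. The difference was 0.49 (SE 0.110, unadjusted p = 0.000783, limma adjusted p = 0.182). Slc25a20, the carnitine-acylcarnitine carrier that works with Cpt2, differed by 0.095 (SE 0.062). Cpt1c went the other way and overlapped between genotypes (difference -0.15, SE 0.065, limma unadjusted p = 0.0444, adjusted p = 0.611).

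Of 8 listed acyl-CoA synthetases and transporters, 6 were measured: Acsl4, Acsl5, Acsl6, Acss1, Acsm5 and Slc27a1 (median difference 0.114). Acsl1 was not among them, so the median covers only part of fatty acid activation. Acss1, which activates acetate in the matrix, read 10.78, 10.95, 10.94 and 10.77 in knockout samples 1 to 4 and 10.65, 10.40, 10.54 and 10.60 in wild type samples 1 to 4. It did not overlap between genotypes (difference 0.31, SE 0.072, limma adjusted p = 0.198). Slc27a1, a fatty acid transport protein of the muscle cell surface, did not overlap either (difference 0.16, SE 0.061, limma adjusted p = 0.492).

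None of the remaining matrix enzymes passed over all genes. Of the 8 other acyl-CoA dehydrogenases (median -0.00050), Ivd stood apart. It encodes isovaleryl-CoA dehydrogenase, which serves leucine breakdown, and read 10.94, 10.81, 11.10 and 10.98 in knockout samples 1 to 4 and 11.26, 11.22, 11.28 and 11.25 in wild type samples 1 to 4. Its groups did not overlap (difference -0.30, SE 0.065, limma adjusted p = 0.176). Acads, the short-chain dehydrogenase of fatty acids, differed by 0.058 (SE 0.069).

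The 4 genes of the electron transfer flavoprotein list, which takes electrons from the dehydrogenases to the respiratory chain, had differences of -0.0072 to 0.063 (median 0.013). The 12 other mitochondrial hydratase, dehydrogenase, thiolase and isomerase genes had a median of 0.0025, with Hadh, the hydroxyacyl-CoA dehydrogenase for shorter chains, at 0.022 (SE 0.072) and Acaa2, the matrix thiolase, at 0.047 (SE 0.070). Mcee, an epimerase of propionate breakdown, had a difference of -0.17 (SE 0.071, unadjusted p = 0.0308, limma adjusted p = 0.561). The differences of Hsd17b10 and of Pcca, a subunit of propionyl-CoA carboxylase, were -0.13 and -0.12. Pccb, the other subunit, differed by 0.010 (SE 0.060). Of the 12 genes, 6 had higher and 6 lower means in knockout. The signs of Hadh and of the flavoprotein subunits Etfa, Etfb and Etfdh each turned when single samples were left out.

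Genes that set malonyl-CoA, the inhibitor of fatty acid entry, had a median of -0.0090 over 3 genes, and the 4 mitochondrial thioesterases a median of 0.129. The 12 measured peroxisomal genes had a median of 0.061. Their smallest unadjusted p belonged to Pex11a, a peroxisome division factor and PPAR target, at a difference of 0.25 (SE 0.099, limma adjusted p = 0.532).

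Of the 14 measured PPAR and PGC-1 regulators, 1 was higher and 2 were lower at an unadjusted p under 0.05, where 4.72% and 3.18% of all genes were (median difference -0.029). Ppara, Ppard and Ppargc1a differed by -0.071, -0.067 and 0.063, each with an SE of at most 0.066. Esrrg, an oestrogen-related receptor of oxidative muscle, differed by -0.18 (SE 0.062) and Nrip1, a corepressor of oxidative genes, by -0.19 (SE 0.072). Rxrg, a partner of PPAR receptors, differed by 0.16 (SE 0.063) without overlap. Their limma adjusted p-values were 0.461, 0.510 and 0.524.

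The list of PPAR target genes outside the 10 enzymes shares Cpt1a, Slc25a20 and Acot2 with the lists above. Of 13 measured, 4 were higher at an unadjusted p under 0.05 (4.72% of all genes were) and 0 were lower (3.18%), with a median difference of 0.095. The 4 were Cpt1a, Ucp3, Pdk4 and Angptl4, which were highest among knockout samples in sample 1. The samples were ordered otherwise in 5 targets, Fabp3, Cd36, Lpl, Slc25a20 and Plin5, which were lowest among knockout samples in sample 1, as most beta-oxidation genes were. Ucp3, a mitochondrial carrier, read 12.09, 11.88, 11.59 and 10.98 in knockout samples 1 to 4 and 11.01, 11.24, 11.16 and 10.98 in wild type samples 1 to 4. Pdk4, the kinase that shuts pyruvate dehydrogenase, read 13.97, 13.88, 13.70 and 13.22 in knockout and 13.13, 13.45, 13.38 and 13.25 in wild type samples 1 to 4. In both genes knockout samples 1, 2 and 3 lay above all wild type samples and knockout sample 4 lay among them.

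Over all 8 samples Ucp3 differed by 0.54 (SE 0.184, limma adjusted p = 0.461) and Pdk4 by 0.39 (SE 0.138, limma adjusted p = 0.462). Without knockout sample 4 Ucp3 passed, with a difference of 0.76 (limma adjusted p = 0.0340). Over the other 14 alternatives it did not pass, and its limma adjusted p reached 0.800 without knockout sample 2. Its difference was 0.39 without knockout sample 1, and 0.35 when wild type sample 4 was left out as well. Knockout sample 4 was not low for the 9 beta-oxidation genes, whose average deviation there was 0.016.

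**Figure D4:**
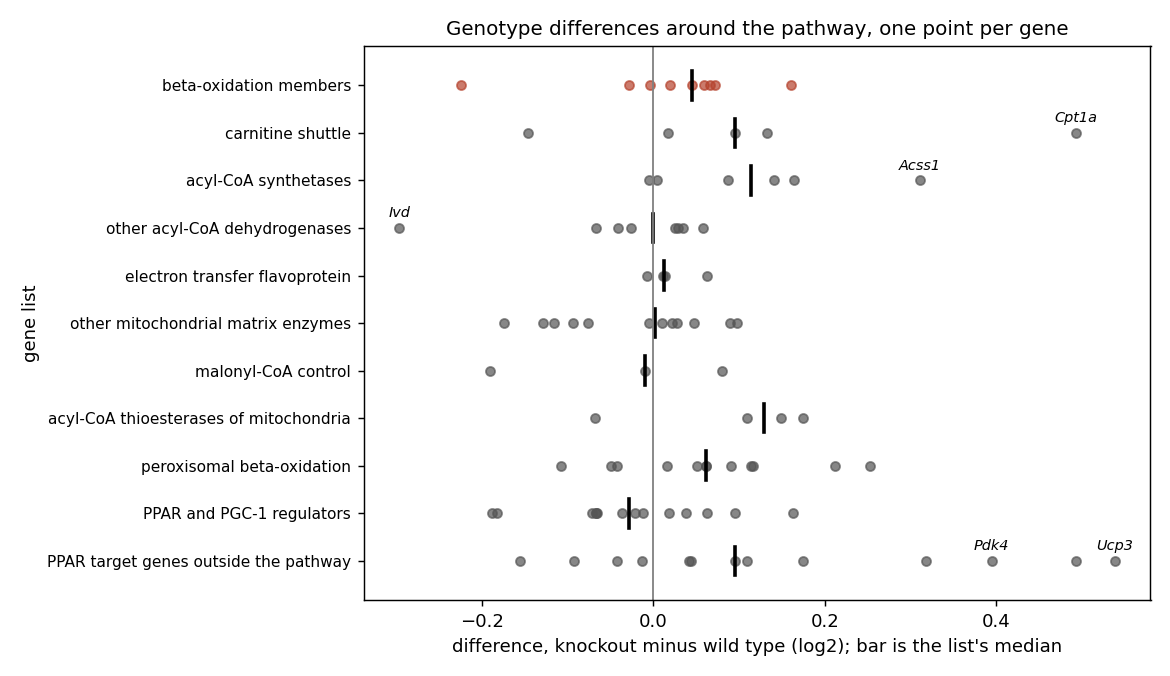
Difference between knockout and wild type (log2) of every measured gene on the beta-oxidation list (red) and on the 10 surrounding lists (grey), with each list's median as a bar. The 9 beta-oxidation genes lie between -0.22 and 0.16, while Ucp3 and Cpt1a reach 0.54 and 0.49 and Ivd -0.30.

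Muscle fibre and other cell markers were set beside these values, on lists also chosen with earlier results of these data known. In bulk muscle, fewer cells of a type and less RNA per cell cannot be told apart. The tissue label fitted its markers: the 8 fast glycolytic fibre genes had means of 14.36 in knockout and 14.39 in wild type, with a median difference of -0.022. All 8 had lower means in knockout. In 2, Tnnt3 and Tnni2, every knockout sample lay below every wild type sample (1.99% of all genes). Quantile normalization turned the sign for 4 of the 8, Atp2a1, Pvalb, Mylpf and Tnnt3. The list means lay near the arrays' brightest probe sets (14.80 to 14.84), and whether differences are compressed there was not tested. The 2 fast oxidative genes, Myh2 and Myh1, had a median difference of -0.029.

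Slow fibres are rich in beta-oxidation enzymes. Of 10 slow fibre genes, 8 were lower in knockout and 1 was higher at an unadjusted p under 0.05, where 3.18% and 4.72% of all genes were, and 0 passed over all genes with the 8 samples. The higher one was Casq2 (difference 0.35, SE 0.119). Mb, the brightest of the 10, differed by -0.039 (SE 0.055). Tnnc1 passed downward with dim genes left out (limma adjusted p = 0.0441) and with array weights (0.0481), and Myl3 without knockout sample 3 (0.0237). The median difference of the 10 was -0.555. For 6 of them every knockout sample lay below every wild type sample (1.99% of all genes), and for 0 above (2.91%). The mean of the list ran from 11.06 to 11.65 in knockout and from 11.63 to 12.00 in wild type, lowest in knockout sample 1. Myh7, the slow myosin heavy chain, read 11.01 in that sample against 11.84 to 12.14 in the other knockout samples. It read 12.22 to 12.73 in wild type samples (difference -0.76, SE 0.199, limma adjusted p = 0.266). The part of slow fibre content in the low beta-oxidation values of knockout sample 1 was not tested.

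Macrophage markers had a list mean of 8.46 to 8.80 in knockout and 8.17 to 8.55 in wild type, with 6 of 9 higher at an unadjusted p under 0.05, and fibroblast markers a mean of 10.71 to 11.10 and 10.57 to 10.88, with 4 of 7 higher, where 4.72% of all genes were higher. Neither list had a gene that passed over all genes. Adipocyte markers varied most between wild type samples, from 8.13 in sample 3 to 9.85 in sample 2, against 8.80 to 9.14 in knockout. The median difference was 0.037 over 7 adipocyte genes, -0.0059 over 4 brown adipocyte genes, -0.0048 over 5 endothelial genes, -0.071 over 5 cardiac muscle genes and 0.016 over 5 liver genes. The part of these cells in the differences of Echs1 and Decr1 was not tested.

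**Figure D5:**
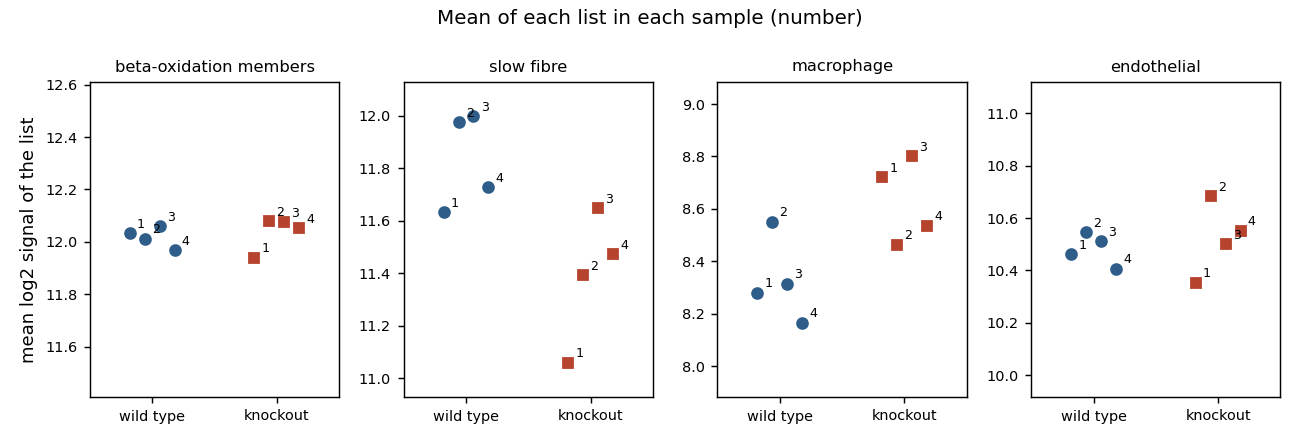
Mean log2 signal of the 9 beta-oxidation genes and of the slow fibre, macrophage and endothelial marker lists in each sample (circles wild type, squares knockout, numbered by sample), all panels spanning the same number of log2 units. The beta-oxidation mean lies between 11.94 and 12.08 in all samples, while the slow fibre mean runs from 11.06 to 12.00.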

How the data were processed

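Total RNA of gastrocnemius (150 ng, RNA integrity number above 8) was hybridised to 1 array per sample, per the labels' protocols. The deposited values are log2 signals, 1 per probe set, which the authors made with Affymetrix Expression Console version 4.0, per the submitters' processing notes. Their background correction, summarisation and normalization are unstated in the labels; the values themselves showed the log2 scale, and no further normalization was applied.

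Of 35556 probe sets, 21789 had 1 symbol, 1621 several and 12146 none listed. The highest-mean probe set gave 19938 genes. Genotypes were compared with limma 3.58.1 (lmFit, eBayes) in R 4.3.3, adjusted by Benjamini-Hochberg over all genes at 0.05; each difference is the knockout mean minus the wild type mean, with the moderated SE. The code was tested on simulated data. The number of arrays limits precision. Members and lists were chosen with earlier results of these data known. Named were Hdac5, the members, up to 3 genes of smallest p per list (brightest markers too), further list members by role (picked with their values seen), and the 6 genes closest in pattern. The 15 alternatives were quantile normalization, dim genes left out, averaged probe sets, trended robust eBayes, array weights, a replicate block, each sample left out, and knockout sample 1 with wild type sample 4 left out. Promoter windows are RefSeq's (GRCm38.p6), matched by symbol. Plots used matplotlib 3.10.9 in Python 3.11.15.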

Additional observations from a re-analysis of the deposited data

Results flagged for a closer look

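Hdac5 held the single outlying value among 20 groups of 4 samples examined, those of the 9 beta-oxidation genes and Hdac5 in each genotype. Knockout sample 4 read 8.39 for Hdac5 against 8.31 to 8.32 in the other knockout samples, far from the rest for so tight a group, although it lay well below every wild type sample. Chance puts about 1 in 20 groups beyond this limit. No beta-oxidation gene had such a sample in either genotype.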

How the results depend on the processing

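No beta-oxidation gene passed the threshold in any of the 15 alternatives, and their median difference stayed above 0 (0.0093 to 0.076 with 1 sample left out). Signs turned for genes close to 0: Acadm under quantile normalization (0.0052) and without a pair of samples, knockout 1 and wild type 4 (0.028; a choice made with the data seen), and Hadhb with array weights (0.0022) and without that pair (0.021). With 1 sample left out Acadm ran from -0.040 to 0.034, Hadhb from -0.072 to 0.011, Acadvl from -0.0017 to 0.048 and Cpt2 from -0.0037 to 0.10. Acadl, Hadha, Echs1, Decr1 and Eci1 kept their signs in all 15, with 1 sample left out over 0.043 to 0.111, 0.035 to 0.095, -0.25 to -0.19, 0.127 to 0.195 and 0.032 to 0.111. Over all genes 13 passed, against 23 under quantile normalization, 33 with dim genes left out and 44 with a trended robust eBayes. With array weights 31 passed, with 1 sample left out 5 to 20, and without the pair above 5. Leaving out dim genes meant that fewer genes were tested and that eBayes was refitted to them. The cause of the changed numbers was not tested. The surrounding lists had 0 to 1 genes past the threshold with 1 sample left out. The deviations of same-numbered samples from their genotype means correlated at 0.21, -0.14, -0.14 and 0.18 for numbers 1 to 4. These values do not settle whether the numbers pair the samples, and the labels do not say so. With the replicate block 30 genes passed, of which 0 were beta-oxidation genes. The block also brought 4 of the 10 slow fibre genes past the threshold (Myh7, Tnnc1, Tnni1 and Tnnt1). The number of arrays, 4 per genotype, sets the width of the intervals.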
